A study of Mus musculus with 6 samples.

Results

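The mitochondrial ribosomal protein genes described here are the rows of the deposited gene expression table whose symbol is Mrpl or Mrps followed by digits alone. This rule gave 75 genes of the 22173 listed, 49 named for the large subunit (Mrpl) and 26 named for the small subunit (Mrps). Their RNA levels were compared between livers of 3 DDK-treated mice and livers of 3 vehicle-treated mice, all 6 of them wild type. The mice were 6 weeks old when put on the diet labelled HFHC for 16 weeks, and they received the compound or its vehicle in the closing 4 weeks of it. Both groups ate this diet, so no normally fed liver enters any comparison. According to its labels the study asks how DDK, which its title describes as a limonoid, protects against MASH, the inflammatory stage of metabolic fatty liver disease. The sex and strain of the mice and any sequencing batch are not given in the sources used here.

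Mitochondria carry their own ribosomes, which translate the few messenger RNAs made from mitochondrial DNA. Those messages encode core subunits of the respiratory chain and of the ATP synthase, so the mitoribosome is needed for oxidative phosphorylation. The ribosomal RNAs come from mitochondrial DNA, whereas every mitoribosomal protein is encoded in the nucleus, made in the cytosol and imported. Some of these proteins descend from bacterial ribosomal proteins, and others are specific to mitochondria. Liver is rich in mitochondria, and hepatocytes are the main cell type of the tissue.

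The 6 libraries held 26576291 to 30237490 fragments in DDK livers and 33963898 to 36105315 in vehicle livers, as recovered from the FPKM values (the fragments of a gene divided by its length in kilobases and by the size of the library). A member had between 232 and 6481 fragments in a library, so no member was near the detection limit. All 75 members passed the filter used for the test, an FPKM of 0.5 or more in 3 or more libraries, which 10681 genes passed in all. The 20 most abundant genes took 32.0% to 32.5% of the summed FPKM in DDK livers and 25.3% to 29.4% in vehicle livers. Among all genes tested the median log2 fold change was -0.23, and fold changes of single members are read beside that value.

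Most members with a called difference were higher in DDK livers. By limma on log2(FPKM + 1), with Benjamini-Hochberg adjustment over all genes tested and an adjusted p threshold of 0.05, 41 of the 75 members were higher and 2 were lower, Mrps12 and Mrpl3. Among all genes tested 10.2% were called higher and 30.3% lower. The members' median log2 fold change was 0.41, and 62 of the 75 had a positive fold change. In 45 members every DDK liver lay above every vehicle liver, and in 7 every DDK liver lay below, against 14.1% and 39.2% of all genes tested. Fewer cells of a type and less RNA per cell cannot be told apart in RNA from whole liver, so every value here is a level per unit of liver RNA.

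These counts changed with the scaling and when a liver was left out, as did the counts over all genes, where 1093 were higher with every liver kept. Leaving out DDK replicates 1, 2 and 3 in turn gave 19, 21 and 37 members higher, beside 623, 599 and 985 of all genes. For vehicle replicates 1, 2 and 3 in turn it was 44, 21 and 18 members, beside 1351, 708 and 639 of all genes. Such fits tested 10374 to 10589 genes, and the loss of a sample was not separated from the effect of that liver. Under median-ratio scaling, which moved the median of all genes by 0.22, 51 members were higher and 2 lower, against 18% and 16.2% of all genes. On the TPM scale, which moved that median by -0.23, 22 members were higher and 6 lower, against 5.91% and 46.1% of all genes. Quantile normalization gave 51 members higher and 2 lower, against 17.7% and 16.3% of all genes, and voom on recovered fragments 49 higher and 2 lower, against 16.9% and 16.7%. In 15 members, 11 Mrpl and 4 Mrps, the higher call was made under each of the 16 settings run, and Mrps12 and Mrpl3 were called lower under each of them.

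**Figure D1:**
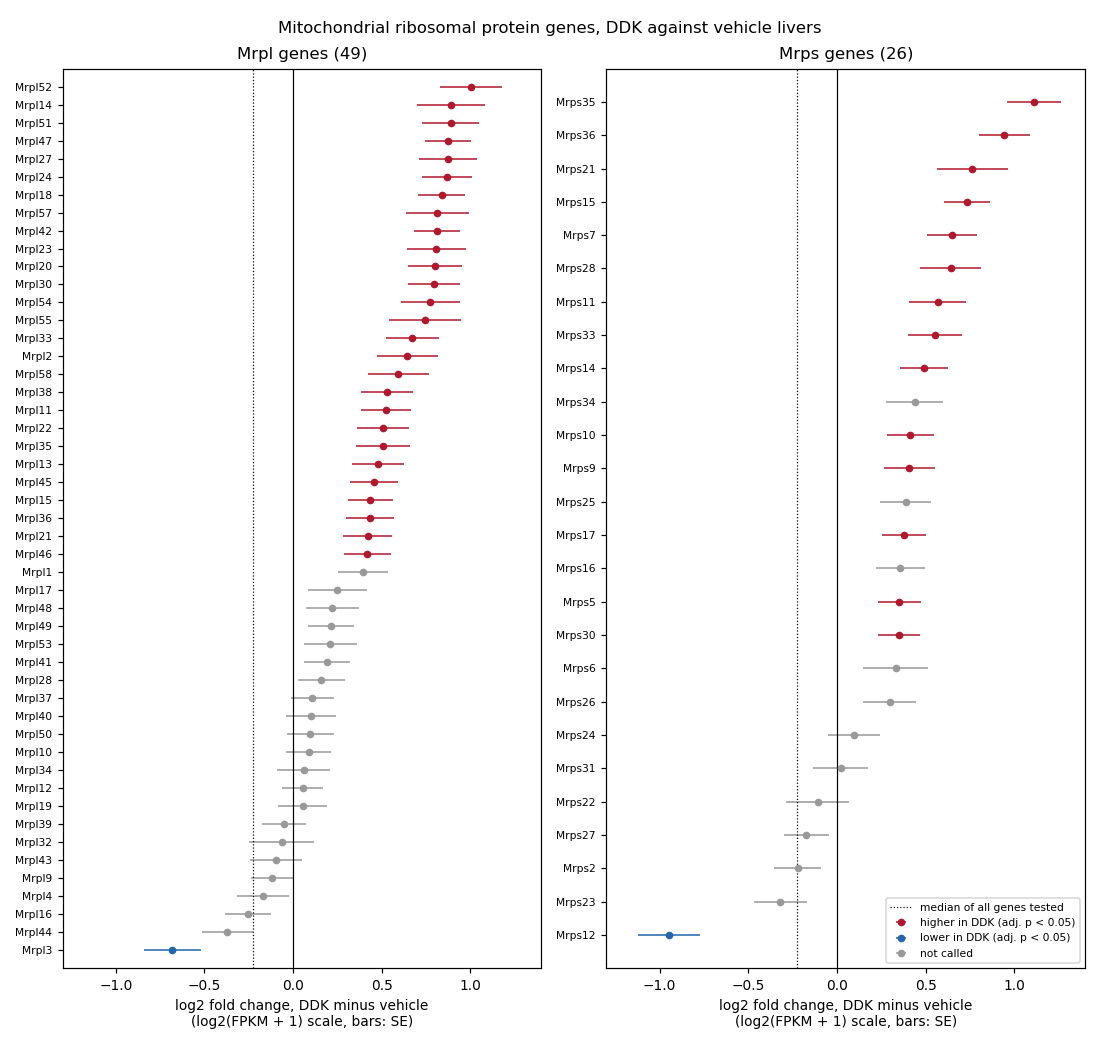
Log2 fold change, DDK minus vehicle on the log2(FPKM + 1) scale, of the 49 Mrpl genes (left) and the 26 Mrps genes (right), with bars for the standard error and 3 livers per group. Red points are the 41 members called higher, blue points the 2 called lower (Mrpl3 and Mrps12), grey points were not called, and the dotted line marks the median of all genes tested, -0.23.

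The large and small subunit names gave like shares of higher genes, beside 10.2% higher and 30.3% lower among all genes tested. Of the 49 Mrpl genes 27 were higher and 1 lower, with a median log2 fold change of 0.44, and of the 26 Mrps genes 14 were higher and 1 lower, with a median of 0.38. Summed FPKM of the Mrpl genes was 2465, 2381 and 2191 in DDK livers, against 1890, 1594 and 1527 in vehicle livers. For the Mrps genes the sums were 1057, 987 and 923 in DDK livers, against 835, 701 and 698 in vehicle livers. In both sets all 3 DDK livers lay above all 3 vehicle livers. The ratio of the 2 sums, Mrpl over Mrps, was 2.33, 2.41 and 2.37 in DDK livers, against 2.27, 2.27 and 2.19 in vehicle livers. This small shift without overlap was described and not tested. Sums weigh abundant genes most, and Mrpl52 alone had 273, 282 and 212 FPKM in DDK livers, against 156, 119.5 and 107 in vehicle livers. By the median log2 deviation from the vehicle mean in each library, the gap between Mrpl and Mrps genes overlapped between the groups. This gap was 0.056, 0.022 and 0.10 in DDK livers, against 0.043, -0.0033 and -0.071 in vehicle livers. The difference between the Mrpl and Mrps median fold changes was 0.05 on the log2 scale. Without vehicle replicate 3 it was -0.0011, and after a correction for gene length 0.14.

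The 75 members together took 0.432%, 0.411% and 0.387% of all fragments in DDK livers, against 0.336%, 0.290% and 0.284% in vehicle livers. Vehicle replicate 1 was the highest vehicle liver for 53 of the 75 members, and DDK replicate 1 was the highest DDK liver for 41. Vehicle replicate 1 was thus the vehicle liver nearest to the DDK livers, and without it 44 members were called higher and 4 lower.

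**Figure D2:**
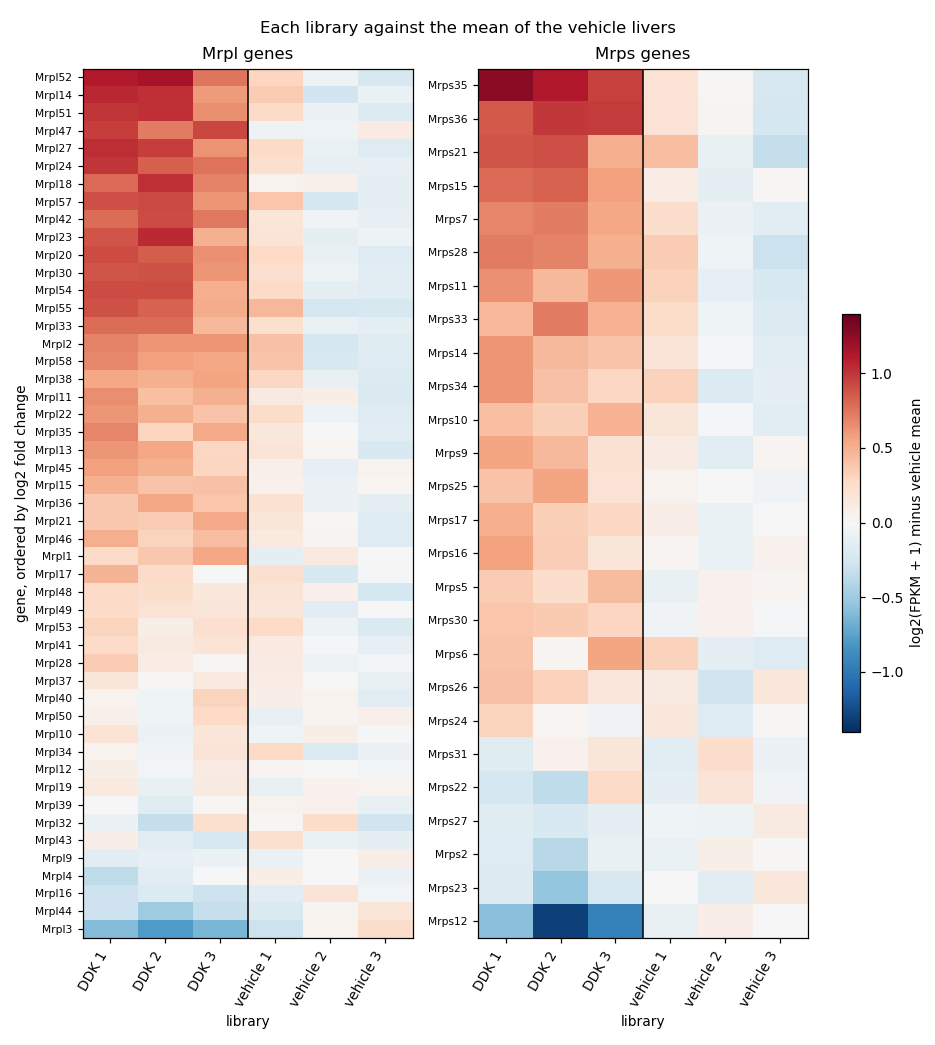
Each member in each library as log2(FPKM + 1) minus the mean of the 3 vehicle livers, DDK livers left of the line and vehicle livers right of it, with Mrpl genes on the left and Mrps genes on the right in order of fold change. Red is above and blue below the vehicle mean, and vehicle replicate 1 is redder than vehicle replicates 2 and 3 in most rows, as the count of 53 members states.

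Among large subunit genes the largest difference on the log2(FPKM + 1) scale was in Mrpl52, a mitochondria-specific protein. By FPKM Mrpl52 was also the most abundant Mrpl gene, a rank that depends on the 412 bp used for it, against 1109 bp of annotated exons. Its FPKM was 273, 282 and 212 in DDK livers, against 156, 119.5 and 107 in vehicle livers, a log2 fold change of 1.003 (SE 0.17, limma adjusted p = 0.00283). With a correction for gene length it was 0.21 and not called, whereas Mrpl14 was then at 1.19 and Mrpl24 at 1.08. Mrpl51, another mitochondria-specific protein, had 77.2, 78.5 and 60.7 FPKM in DDK livers, against 46.2, 36.2 and 33.3 in vehicle livers (log2 fold change 0.89, SE 0.16, limma adjusted p = 0.00336). Both genes were close to 2-fold higher in DDK livers, with no overlap between the groups. Mrpl14, whose protein lies at the face that meets the small subunit and binds the assembly factor Malsu1, had 20.7, 20.3 and 14.8 FPKM in DDK livers, against 12.4, 7.72 and 8.84 in vehicle livers (log2 fold change 0.89, SE 0.19, limma adjusted p = 0.00669). Mrpl27, the counterpart of a bacterial protein that reaches the peptidyl transferase centre, had 135, 129 and 102 FPKM in DDK livers, against 79.8, 61.5 and 57.8 in vehicle livers (log2 fold change 0.87, SE 0.16, limma adjusted p = 0.00375). In each of these 4 genes the third DDK liver was the lowest of its group and the first vehicle liver the highest of its group.

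The proteins that ring the exit of the peptide tunnel in bacteria have 6 counterparts among the members, a grouping made after the values were seen. Mrpl24 had 49.5, 44.1 and 41.6 FPKM in DDK livers, against 28.5, 22.4 and 22.3 in vehicle livers (log2 fold change 0.87, SE 0.14, limma adjusted p = 0.00219). Mrpl47 had 22.5, 18.8 and 21.8 FPKM in DDK livers, against 10.4, 10.6 and 12.0 in vehicle livers (log2 fold change 0.88, SE 0.13, limma adjusted p = 0.00169). Mrpl23 and Mrpl22 were also called higher, with log2 fold changes of 0.81 and 0.51. Mrpl17 and Mrpl32 were not called, with log2 fold changes of 0.25 and -0.06, so 4 of the 6 were higher. Mrpl45, a mitochondria-specific protein at the same exit that in human cells helps to hold the ribosome at the inner membrane, was higher with a log2 fold change of 0.46.

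The stalk that recruits translation factors has 3 proteins among the members, of which 1 was higher. Mrpl12, its flexible protein, also binds the mitochondrial RNA polymerase in human cells, and was the second most abundant Mrpl gene by FPKM. It had 189, 173 and 194 FPKM in DDK livers, against 183, 178 and 174 in vehicle livers, and the groups overlapped (log2 fold change 0.05, SE 0.12, limma adjusted p = 0.734). Mrpl10, the base of the stalk, was not called either (log2 fold change 0.09, limma adjusted p = 0.594), whereas Mrpl11, which sits beside it, was higher (0.52, limma adjusted p = 0.0172). The direction of Mrpl12 was negative under quantile, TPM and length-corrected scaling, without a call under any of them.

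Mrpl3, whose bacterial counterpart contacts the ribosomal RNA near the catalytic centre, was the 1 large subunit gene called lower. It had 1.28, 1.003 and 1.23 FPKM in DDK livers, against 1.82, 2.60 and 3.12 in vehicle livers (log2 fold change -0.68, SE 0.16, limma adjusted p = 0.0102). The groups did not overlap, and the values rest on 321, 232 and 323 fragments in DDK livers and on 573, 775 and 922 in vehicle livers. Mrpl3 was the least abundant member, and its FPKM was computed with a length of 8707 bp, the longest of all members. Mrpl44, a mitochondria-specific protein with a ribonuclease III fold, was below every vehicle liver in all DDK livers, at 14.7, 12.6 and 14.4 FPKM in DDK livers against 15.7, 18.8 and 20.7 in vehicle livers. It was not called (log2 fold change -0.37, SE 0.14, limma adjusted p = 0.061), and it was called lower without vehicle replicate 1 (adjusted p = 0.0136) and on the TPM scale (adjusted p = 0.015).

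By FPKM, Mrpl19 and Mrpl4 were, after Mrpl3, the least abundant large subunit genes. The rank of Mrpl4 is uncertain, since its FPKM was computed with 8356 bp, against 2617 bp of exons annotated by GENCODE. Mrpl19 averaged 2.74 ± 0.344 FPKM in DDK livers and 2.60 ± 0.231 in vehicle livers (SD, n = 3 each), and Mrpl4 averaged 3.87 ± 0.601 in DDK livers and 4.45 ± 0.332 in vehicle livers. Neither was called, and the groups overlapped in both. Mrpl19 was called higher under quantile normalization (log2 fold change 0.35, adjusted p = 0.0427) and with a correction for gene length (0.37, adjusted p = 0.0329). Mrpl58 is a peptidyl-tRNA hydrolase that frees stalled ribosomes and is built into the large subunit. It had 67.3, 62.8 and 61.6 FPKM in DDK livers, against 55.6, 36.0 and 36.8 in vehicle livers (log2 fold change 0.59, SE 0.17, limma adjusted p = 0.0212). Without DDK replicate 1 or 2, or vehicle replicate 2 or 3, this call was lost, with limma adjusted p-values of 0.0708, 0.0642, 0.0738 and 0.09. It was also lost without the filter (0.0597), on the TPM scale (0.0664) and with a correction for gene length, where the log2 fold change was 0.21 (0.195).

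In the small subunit Mrps35, a mitochondria-specific protein, showed the largest fold change of all members. Its FPKM was 26.9, 24.3 and 21.5 in DDK livers, against 12.4, 10.8 and 8.94 in vehicle livers, a 2.26-fold higher mean (log2 fold change 1.11, SE 0.15, limma adjusted p = 0.00126). Mrps15, an rRNA-binding protein whose bacterial counterpart joins the small subunit early, had 56.8, 58.1 and 48.4 FPKM in DDK livers, against 34.8, 29.5 and 32.7 in vehicle livers (log2 fold change 0.73, SE 0.13, limma adjusted p = 0.00318). Mrps7, a protein of the small subunit head, had 89.6, 91.5 and 80.6 FPKM in DDK livers, against 65.5, 52.2 and 49.2 in vehicle livers (log2 fold change 0.65, SE 0.14, limma adjusted p = 0.00682). These 3 genes were among the 15 called higher under every setting, and in each the lowest DDK liver stood above the highest vehicle liver.

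Mrps21, the most abundant Mrps gene by FPKM and the counterpart of a bacterial small subunit protein, was closer to the threshold. It had 136, 139 and 105 FPKM in DDK livers, against 99.7, 68.4 and 58.4 in vehicle livers (log2 fold change 0.76, SE 0.20, limma adjusted p = 0.0149). Leaving out DDK replicate 1, DDK replicate 2 or vehicle replicate 3 ended the call, with adjusted p-values of 0.0522, 0.0637 and 0.0663. Mrps28 had 71.9, 69.8 and 61.2 FPKM in DDK livers, against 55.1, 41.2 and 34.8 in vehicle livers (log2 fold change 0.64, SE 0.17, limma adjusted p = 0.0156), and lost its call when the same livers were left out (0.0571, 0.0603 and 0.0683). It was also not called with a correction for gene length, where its log2 fold change was 0.21 (adjusted p = 0.2). In both genes vehicle replicate 1 stood highest among the vehicle livers.

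Mrps12 was the one small subunit gene called lower in DDK livers, and on the log2(FPKM + 1) scale it had the largest fall of all members. Its protein is the counterpart of bacterial S12 at the decoding centre, where codon and anticodon are matched. It had 24.5, 14.6 and 18.9 FPKM in DDK livers, against 34.7, 40.1 and 37.5 in vehicle livers (log2 fold change -0.95, SE 0.18, limma adjusted p = 0.00375). Every DDK liver was below every vehicle liver. At 19.3 ± 4.97 FPKM in DDK livers and 37.4 ± 2.66 in vehicle livers (SD, n = 3 each), the mean ratio was 0.516. The mean ratio of Mrpl3 was lower, at 0.465, and with a pseudocount of 0.1 the log2 fold change was -1.02 for Mrpl3 and -0.98 for Mrps12. Mrps23, Mrps2 and Mrps27 were also below the vehicle livers in all 3 DDK livers, with log2 fold changes of -0.32, -0.22 and -0.17, and none of them was called. Under median-ratio scaling Mrps2 and Mrps27 turned to 0.056 and 0.096.

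**Figure D3:**
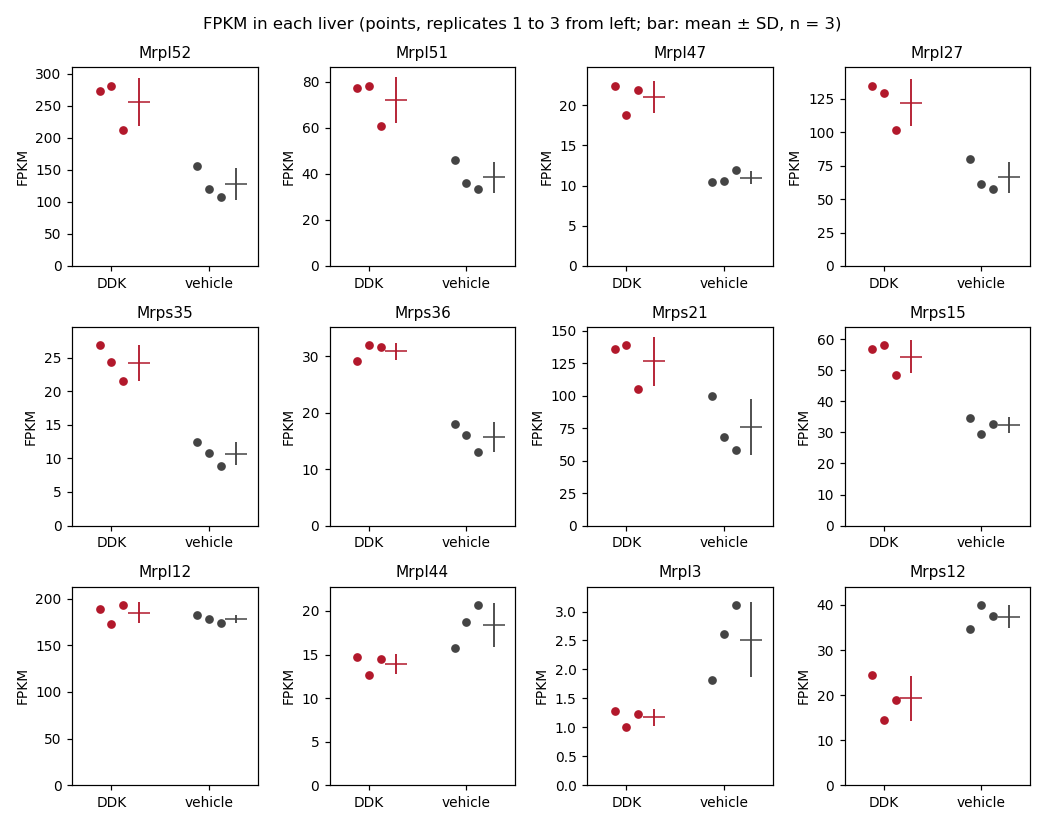
FPKM of 12 members in each DDK liver (red points) and each vehicle liver (dark points), with the mean and SD of 3 livers as a bar beside the points and each axis starting at 0. Mrpl52, Mrpl51, Mrpl47, Mrpl27, Mrps35, Mrps36, Mrps21 and Mrps15 lie higher in DDK livers without overlap, Mrpl12 overlaps, and Mrpl44, Mrpl3 and Mrps12 lie lower.

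Some members have names that do not match their place. Mrps30, named for the small subunit, is found in the large subunit of the mammalian mitoribosome. It had 23.8, 23.3 and 22.2 FPKM in DDK livers, against 17.3, 18.7 and 17.7 in vehicle livers (log2 fold change 0.35, SE 0.12, limma adjusted p = 0.0379). This call was lost with a replicate block (adjusted p = 0.0679), on the TPM scale (0.435, log2 fold change 0.13) and when any liver but vehicle replicate 1 was left out (0.0578 to 0.132). Mrps36 was first named as a ribosomal protein and is now assigned to the 2-oxoglutarate dehydrogenase complex of the citric acid cycle. It had 29.1, 32.0 and 31.5 FPKM in DDK livers, against 18.1, 16.0 and 12.95 in vehicle livers (log2 fold change 0.94, SE 0.14, limma adjusted p = 0.00181). With Mrps30 counted by place, 28 of 50 large subunit genes were higher and 1 lower, and without Mrps30 and Mrps36, 12 of 24 small subunit genes were higher and 1 lower.

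Sorted by origin, 16 of 28 large subunit genes with a bacterial counterpart were higher and 1 lower, with a median log2 fold change of 0.44. Over all genes tested 10.2% were called higher and 30.3% lower, at a median of -0.23. Of 20 mitochondria-specific large subunit genes, Mrps30 included, 10 were higher and 0 lower by limma, with a median of 0.29; of them 1 was lower at an unadjusted p under 0.05, and voom called 0 lower. In the small subunit 10 of 15 genes with a bacterial counterpart were higher and 1 lower (median 0.41). Of the 9 mitochondria-specific ones 2 were higher, Mrps35 and Mrps33, and 0 were lower by limma (median 0.30), with 0 lower at an unadjusted p under 0.05 and 0 by voom. The 3 members in no class list, Mrpl47, Mrpl55 and Mrps36, were all higher, and Mrpl47 was left out of its class by oversight. The large subunit counts by origin thus include neither Mrpl47 nor Mrpl55.

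The members nearest to the threshold were Mrps9 and Mrps5 inside it (limma adjusted p = 0.0461 and 0.0445) and Mrpl1 and Mrps34 outside it (0.0502 and 0.0539). Mrpl1, the counterpart of the bacterial protein of the mobile L1 stalk, was higher in every DDK liver than in any vehicle liver, at 7.44, 8.10 and 9.21 FPKM in DDK livers against 5.38, 6.68 and 6.03 in vehicle livers. Mrps34 averaged 100.4 ± 11.6 FPKM in DDK livers and 74.4 ± 15.2 in vehicle livers (SD, n = 3 each), with overlap. A higher call of Mrps34 was gained without vehicle replicate 1 (limma adjusted p = 0.0065) and with a replicate block (0.0288). It was also gained under median-ratio scaling (0.0211), quantile normalization (0.0438) and voom (0.0173). In all, Mrps34 was called higher in 5 of the 16 settings and Mrpl1 in 6. Mrps9 and Mrps5 lost theirs under several alternatives, for example at adjusted p = 0.17 and 0.127 without DDK replicate 1.

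Gene length moved with the fold changes in these libraries. The length behind each FPKM value was recovered from the values themselves, and the genes were put into 4 length classes after the values were seen. Among all genes under 1000 bp the median log2 fold change was 0.41 and 46.8% were called higher, while over 4000 bp the median was -0.30 and 3.27% were called higher. Of the 21 members under 1000 bp 13 were higher, with a median of 0.59. Between 1000 and 2000 bp, where 18.6% of all genes were called higher at a median of -0.06, 15 of 29 members were higher and 1 lower at a median of 0.35. Between 2000 and 4000 bp, where 6.67% of all genes were called higher at a median of -0.26, 11 of 16 members were higher at a median of 0.47. Over 4000 bp 2 of 9 members were higher and 1 lower, with a median of 0.25. In each length class the members' median lay above that of all genes, most closely among the shortest.

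After the length trend was subtracted in each library, 35 members were higher and 3 lower, against 16.1% and 17.3% of all genes tested, and 30 of the 41 higher calls were kept. The members' median was then 0.31, with 24 Mrpl genes higher and 2 lower and 11 Mrps genes higher and 1 lower. Short genes moved down: Mrpl52, computed with 412 bp, was at 0.21 (limma adjusted p = 0.133), and Mrps21, computed with 510 bp, was at 0.11 (adjusted p = 0.534). Mrpl33, computed with 466 bp and called higher before the correction (0.67, adjusted p = 0.00766), was at -0.042 (adjusted p = 0.763). Mrpl34, computed with 646 bp and not called before it (0.06), was called lower at -0.44 (adjusted p = 0.0258). Longer members kept or gained size, with Mrps35 (2846 bp) at 1.37 and Mrpl24 (2388 bp) at 1.08. Mrps12 (1041 bp) stayed lower at -1.14 (adjusted p = 0.00324), and Mrpl3 stayed lower at -0.39 (adjusted p = 0.0287). The recovered length was within 1.5 times the summed exons of the GENCODE annotation for 39 members and over 1.5 times shorter for 32. It was over 1.5 times longer for 4, among them Mrpl14 (7525 bp recovered, 949 bp annotated) and Mrpl4 (8356 bp recovered, 2617 bp annotated). Levels compared between genes are uncertain for the members beyond 1.5 times in either direction.

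**Figure D4:**
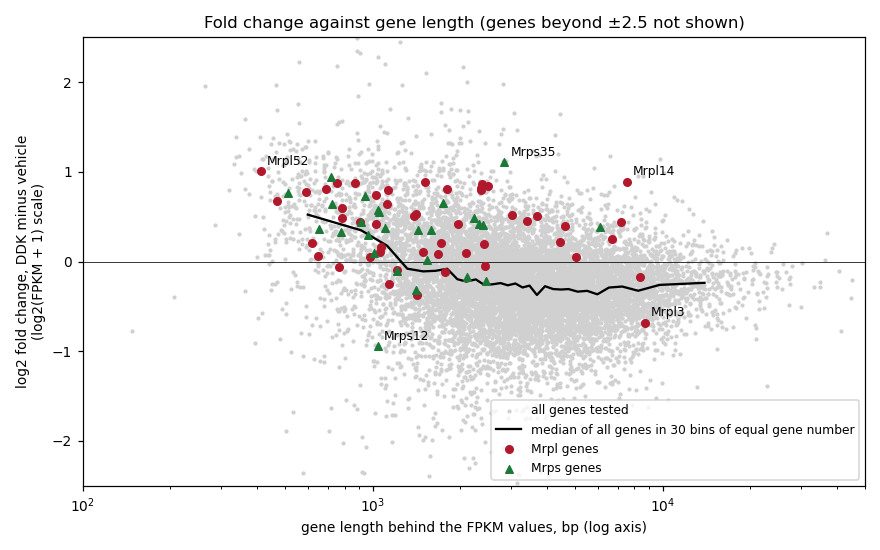
Log2 fold change, DDK minus vehicle on the log2(FPKM + 1) scale, against the gene length behind the FPKM values (log axis), for all genes tested (grey), Mrpl genes (red circles) and Mrps genes (green triangles). The black line, the median of all genes in bins of equal gene number, is above 0 for the shortest genes and below 0 for long ones, and most members lie above it, Mrps12 and Mrpl3 below.

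The genes that neighbour the members were examined next, by a definition of neighbour made after the values were seen. In 31 of the 75 members (41.3%) another protein-coding gene starts on the opposite strand within 1000 bp of the member's start, against 16.8% of 10442 protein-coding genes tested. Of these partners 24 passed the filter, and 6 were higher, 3 lower and 15 not called, beside 10.2% higher and 30.3% lower among all genes. Mrps11 and Mrpl46 are each other's partner and so count as 2 of the 6. Mrps11 and Mrpl46 start back to back on chromosome 7, and both were higher, Mrps11 at 26.4, 23.1 and 25.9 FPKM in DDK livers against 21.1, 15.3 and 14.2 in vehicle livers, and Mrpl46 at 34.1, 29.7 and 32.3 FPKM in DDK livers against 26.1, 24.4 and 20.8 in vehicle livers. Their log2 fold changes were 0.57 and 0.42 (limma adjusted p = 0.0199 and 0.0307). Mrpl47 and Mrpl36 each start beside a gene of respiratory complex I, Ndufb5 and Ndufs6, and both partners were higher, with log2 fold changes of 0.72 and 0.74 (limma adjusted p = 0.0021 and 0.00835). Mrps12 starts beside Sars2, the mitochondrial seryl-tRNA synthetase, which was not called (log2 fold change -0.23, limma adjusted p = 0.284). Because the library kit does not mark strand, reads from exons that overlap on opposite strands cannot be told apart. By GENCODE exons this concerns Mrps25 with Nr2c2 (69.8% of the annotated exon length of Mrps25) and Mrps34 with Mapk8ip3 (63.4%), among others. Mrpl47 shares 616 exon bases in this way with Ndufb5, whose mean FPKM was 182 in DDK livers and 110 in vehicle livers. Mrps11 and Mrpl46 share 173 exon bases, and Mrpl36 and Ndufs6 share 30. These overlaps are of annotated exons, which can differ from those behind the FPKM values. Mrps34 was computed with 914 bp (2064 bp annotated) and Mrpl47 with 872 bp (4419 bp annotated). The overlap within the counted exons is thus not known. Whether the genes of such pairs rose independently was not tested.

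Start regions were taken from RefSeq (build GRCm38.p6), as 250 bases before to 50 bases after a gene's start, and were present for 66 members and 8611 of the genes tested. Letters were searched on both strands for strings that belong to the binding motifs of ETS factors such as GABP (CCGGAAG), of NRF1 (GCGCANGC) and of YY1 (AAGATGGCG), factors known as regulators of nuclear genes for mitochondrial proteins. The 3 strings were chosen out of 9 tried after their shares had been seen. The ETS string was in 34.8% of the members' windows and 20.9% of those of all genes tested, the NRF1 string in 31.8% and 22.7%, and the YY1 string in 10.6% and 3.8%. At least 1 of the 3 was in 65.2% of members' windows and 40.5% of all. Among members called higher this share was 62.9%, and among members not called it was 65.5%, so the strings did not separate the members that rose from those that were not called. Of the other strings tried 4 are given here and 2 are not. ACCGGAAG was in 13.6% of members' windows and 5.6% of all, TGCGCA in 28.8% and 16.1%, and ATGGCGGC in 16.7% and 6.1%. GGGCGGG, the core of an SP1 site, was in 42.4% and 51.6%.

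The windows of 5 members follow, 5′ to 3′ on the strand of the gene, for the largest rise among Mrpl genes on the log2(FPKM + 1) scale without length correction (Mrpl52, chr14:54426659-54426958, plus strand), for an abundant member that was not called (Mrpl12, chr11:120484387-120484686, plus strand), for the back-to-back pair (Mrps11, chr7:78782881-78783180, plus strand, and Mrpl46, chr7:78783040-78783339, minus strand) and for the largest fall on that scale (Mrps12, chr7:28741772-28742071, minus strand). Capitals mark a match to 1 of the 3 strings on either strand.
Mrpl52: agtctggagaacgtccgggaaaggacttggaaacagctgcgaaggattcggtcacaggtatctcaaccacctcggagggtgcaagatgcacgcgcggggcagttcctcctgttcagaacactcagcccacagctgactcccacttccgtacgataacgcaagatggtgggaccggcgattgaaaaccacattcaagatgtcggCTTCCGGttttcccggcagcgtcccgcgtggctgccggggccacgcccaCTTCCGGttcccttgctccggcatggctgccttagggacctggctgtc
Mrpl12: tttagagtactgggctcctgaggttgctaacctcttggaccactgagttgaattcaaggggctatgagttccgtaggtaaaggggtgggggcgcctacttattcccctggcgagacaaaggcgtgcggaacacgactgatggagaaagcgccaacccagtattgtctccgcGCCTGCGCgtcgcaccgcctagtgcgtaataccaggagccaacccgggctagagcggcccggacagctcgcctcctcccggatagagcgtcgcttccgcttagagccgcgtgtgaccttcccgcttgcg
Mrps11: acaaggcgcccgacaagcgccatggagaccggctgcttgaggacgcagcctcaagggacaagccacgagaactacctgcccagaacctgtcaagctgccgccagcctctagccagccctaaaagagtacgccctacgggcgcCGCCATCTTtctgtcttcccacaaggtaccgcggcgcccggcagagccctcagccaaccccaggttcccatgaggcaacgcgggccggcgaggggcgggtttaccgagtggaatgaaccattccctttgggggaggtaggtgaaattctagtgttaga
Mrpl46: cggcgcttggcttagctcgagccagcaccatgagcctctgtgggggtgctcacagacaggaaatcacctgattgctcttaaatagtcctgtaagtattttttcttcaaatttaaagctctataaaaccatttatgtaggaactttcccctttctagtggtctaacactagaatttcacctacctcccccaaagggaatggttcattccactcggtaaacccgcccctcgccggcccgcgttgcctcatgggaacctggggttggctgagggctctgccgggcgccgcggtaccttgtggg
Mrps12: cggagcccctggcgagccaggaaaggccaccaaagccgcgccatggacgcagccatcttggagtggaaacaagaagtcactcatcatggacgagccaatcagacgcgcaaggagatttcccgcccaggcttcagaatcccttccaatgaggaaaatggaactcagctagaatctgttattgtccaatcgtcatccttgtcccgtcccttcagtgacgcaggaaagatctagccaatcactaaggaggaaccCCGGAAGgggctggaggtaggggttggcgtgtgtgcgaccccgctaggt
Mrpl52 holds the ETS string 2 times, beginning at bases 204 and 253 of the window, and Mrps12 holds it 1 time, beginning at base 252. Mrpl12 holds the NRF1 string at base 172 and Mrps11 the YY1 string at base 143. The windows of Mrps11 and Mrpl46 share 141 bases, and none of the 3 strings lies in the Mrpl46 window. The ETS string thus occurs both in Mrpl52, which was called higher, and in Mrps12, which was called lower, and a match of letters is not evidence of a bound factor.

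Of 8 mitoribosomal proteins whose symbols fall outside the rule 2 were higher and 2 lower (25% each, against 10.2% higher and 30.3% lower among all genes). Gadd45gip1, a mitochondria-specific large subunit protein, had 75.9, 70.8 and 63.0 FPKM in DDK livers, against 38.3, 29.8 and 27.2 in vehicle livers (log2 fold change 1.12, SE 0.15, limma adjusted p = 0.00122). Aurkaip1, a small subunit protein, was higher with a log2 fold change of 0.83 (limma adjusted p = 0.00169). Mrps18a and Mrps18b, related copies of one bacterial protein, were lower with log2 fold changes of -0.59 and -0.45 (limma adjusted p = 0.00822 and 0.0383), and the third copy, Mrps18c, was not called at 0.25, with 3 of the 16 settings calling it higher and 1 calling it lower. Under median-ratio scaling neither Mrps18a nor Mrps18b was called lower (adjusted p = 0.106 and 0.367).

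Of 26 factors that build the mitoribosome 5 were higher and 3 lower (19.2% and 11.5%, against 10.2% and 30.3% of all genes). Mrm3, a methyltransferase of the large ribosomal RNA, had 10.2, 9.61 and 8.88 FPKM in DDK livers, against 4.39, 5.46 and 4.86 in vehicle livers (log2 fold change 0.84, SE 0.14, limma adjusted p = 0.00224). Mettl17, needed for assembly of the small subunit, was higher at 0.91 (limma adjusted p = 0.00505), and Malsu1, which keeps an immature large subunit from joining, at 0.60 (0.0101). Mterf4 and Rbfa were higher at 0.38 and 0.43, calls made in 9 and 10 of the 16 settings. Trub2, a pseudouridine synthase, Dhx30, an RNA helicase, and Mpv17l2 were lower at -0.77, -0.52 and -0.40. Of these 3 calls, those of Dhx30 and Mpv17l2 were lost under median-ratio scaling (adjusted p = 0.104 and 0.462).

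Among the factors that run translation 1 of 15 was higher and 5 were lower. Gfm1, the elongation factor that moves the ribosome along the message, had 9.53, 9.75 and 15.0 FPKM in DDK livers, against 27.3, 47.2 and 41.5 in vehicle livers (log2 fold change -1.67, SE 0.23, limma adjusted p = 0.00122). Taco1, an activator of cytochrome oxidase subunit translation, had 2.61, 2.48 and 3.15 FPKM in DDK livers, against 4.99, 13.2 and 13.5 in vehicle livers (log2 fold change -1.52, SE 0.30, limma adjusted p = 0.00472). Vehicle replicate 1 was the vehicle liver nearest to the DDK livers in both. Gfm2 and Mrrf, which recycle ribosomes, were lower at -0.69 and -0.43, calls made in 16 and 7 of the 16 settings, and Tufm, which delivers aminoacyl-tRNA, was lower at -0.46 (limma adjusted p = 0.0129), a call lost under median-ratio scaling (adjusted p = 0.35). Slirp, a partner of Lrpprc that stabilises mitochondrial messages, was the 1 gene of the list higher in DDK livers, with a log2 fold change of 1.14, and its length of 419 bp puts it among the shortest genes. The background shares were 10.2% higher and 30.3% lower, so 5 of 15 lower is close to the share of all genes.

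Of 19 mitochondrial aminoacyl-tRNA synthetases and related amidotransferase subunits tested, 7 were lower and 0 higher by limma at this threshold. None was higher at an unadjusted p under 0.05 either (0 of 19), whereas voom called 2 higher. Iars2, which charges isoleucine tRNA, had 6.05, 6.75 and 6.33 FPKM in DDK livers, against 12.5, 15.3 and 15.9 in vehicle livers (log2 fold change -1.07, SE 0.14, limma adjusted p = 0.001). Gatb, Qrsl1 and Rars2 were lower at -0.55, -0.58 and -0.48, and all 3 calls were lost under median-ratio scaling (adjusted p = 0.13, 0.0724 and 0.127). This share too is near the 30.3% of all genes.

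Among 16 genes of mitochondrial transcription, DNA maintenance and their nuclear regulators 2 were higher and 1 lower (12.5% and 6.25%, against 10.2% and 30.3% of all genes). Ssbp1, which coats single-stranded mitochondrial DNA, was higher at 0.58 (limma adjusted p = 0.00579), and Esrra, a nuclear receptor that drives mitochondrial genes, at 0.48 (0.0156), a call made in 12 of the 16 settings. Gabpa, the ETS factor named above, had 4.00, 3.22 and 4.33 FPKM in DDK livers, against 4.65, 8.23 and 9.66 in vehicle livers (log2 fold change -0.77, SE 0.23, limma adjusted p = 0.0238), and was called in 7 of the 16 settings. Tfam, Polrmt, Nrf1 and Ppargc1a were not called, with log2 fold changes of -0.33, 0.13, -0.08 and 0.17. Polrmt was called higher after the length correction (adjusted p = 0.0253), by quantiles (0.0304) and by median ratios (0.0452). Ppargc1a was called higher under quantile normalization, length correction and voom (0.022, 0.0218 and 0.0116), and Tfam was called lower without DDK replicate 3 (0.0267). Nrf1 and Ppargc1a were near the filter, at 0.467 and 0.524 FPKM in DDK livers and 0.545 and 0.358 in vehicle livers.

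**Figure D5:**
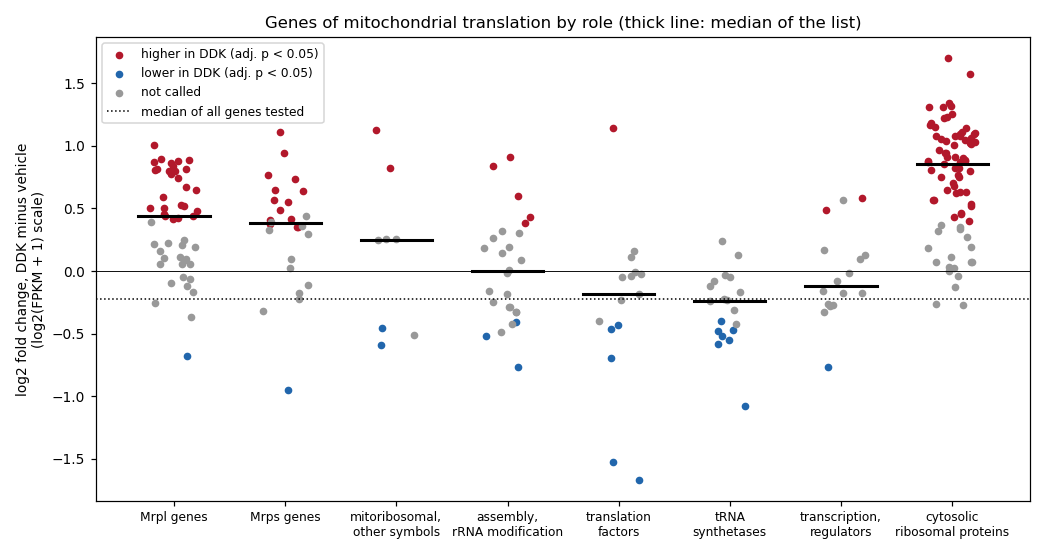
Log2 fold change, DDK minus vehicle on the log2(FPKM + 1) scale, of every gene tested in each list, with the list's median as a thick line and the median of all genes as a dotted line. Mrpl (median 0.44) and Mrps genes (0.38) lie above the dotted line, cytosolic ribosomal proteins (0.85) lie higher still, and translation factors (-0.18) and tRNA synthetases (-0.24) lie near it.

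Cytosolic ribosomal protein genes were the set taken for comparison, since they also encode ribosomal proteins. They were far more abundant, with a median over genes of the mean FPKM of 393, against 25.9 for the members. Of 79 tested 61 were higher and 0 lower by limma, beside 10.2% and 30.3% of all genes. Their median log2 fold change was 0.85 and their median length 795 bp, against 1414 bp for the members. None was lower at an unadjusted p under 0.05 or by voom (0 of 79 each). Many of these genes have near-identical copies elsewhere in the genome, so their values are uncertain where the counting shared fragments between copies. After the length correction the median of the cytosolic genes was 0.39, beside 0.31 for the members. Then 43 cytosolic genes were higher and 4 lower, against 16.1% and 17.3% of all genes.

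Some markers of liver cell types differed between the groups as well, and among all genes tested 10.2% were called higher and 30.3% lower. Summed FPKM of 7 hepatocyte markers ranged from 61571 to 64416 in DDK livers and from 37318 to 48381 in vehicle livers. Alb was the largest part of this sum, at 33702, 34879 and 37838 FPKM in DDK livers, against 21423, 19389 and 17336 in vehicle livers. Of the 7 markers 3 were called higher (Alb, Ttr and Serpina1a) and 1 lower (Tat). Tat lost its call under median-ratio scaling (limma adjusted p = 0.34). Apoa1, Cyp2e1 and Cps1 were not called. Sums of 6 macrophage and Kupffer cell markers ranged from 59.4 to 151 in DDK livers and from 257 to 453 in vehicle livers. Lyz2 carried much of this sum, at 53.9, 37.4 and 23.2 FPKM in DDK livers, against 193, 168 and 312 in vehicle livers. Of the 6 markers 4 were lower (Adgre1, Cd68, Lyz2 and Csf1r), whereas Clec4f and Vsig4 overlapped between the groups and were not called. The call of Cd68 was lost under median-ratio scaling (limma adjusted p = 0.105). The 5 stellate cell markers summed to 54.5 to 78.3 in DDK livers and 125 to 156 in vehicle livers, with 4 lower and Des not called. The 4 endothelial markers summed to 7.47 to 10.9 in DDK livers and 12.4 to 20.3 in vehicle livers. Of these, 2 were lower (Pecam1 and Cdh5), and Stab2 and Kdr were not called. Cdh5 was not called under median-ratio scaling (limma adjusted p = 0.0708). Sums of 4 cholangiocyte markers overlapped, at 3.36 to 4.87 in DDK livers and 2.90 to 5.65 in vehicle livers, with 1 higher. Of 4 T and B cell markers 2 passed the filter, Cd3g and Cd79a, and neither was called. Sums of 3 red blood cell markers also overlapped, at 254 to 512 in DDK livers and 303 to 401 in vehicle livers. Among them Hba-a1 was higher, Alas2 lower and Hbb-bs not called. None of these markers was at 0 in any library. The part of these shifts in the members' differences was not tested.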

How the data were processed

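RNA-seq libraries of 6 mouse livers were compared, 3 DDK and 3 vehicle, grouped by the treatment label; per the study's design text each liver is from a separate mouse. The authors deposited FPKM values per gene symbol, which are not counts. Per the labels' protocols, 1.3 µg of total RNA went into each library (NEBNext Ultra kit, unstranded). The build was GRCm38 (mm10), per the submitters' processing notes. The aligner, the counting program, the annotation and the handling of fragments that match several genes: none is given in the sources used here.

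The 10681 genes with an FPKM of 0.5 or more in 3 or more libraries were tested with limma 3.58.1 (R 4.3.3) on log2(FPKM + 1), the values scaled as deposited, with an intensity trend and Benjamini-Hochberg adjustment at 0.05. Fold changes on this scale understate changes of low genes. Whole fragments, gene lengths and library totals were recovered from the FPKM values: 88614 of 88617 values above 0 were whole within 0.01 of a fragment, and the method was tested on simulated data, as was the model. Gene positions came from GENCODE on GRCm38, start regions from RefSeq.

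The members and gene lists were chosen with earlier results of these data known, so lists are described by counts and medians, without tests. Members named in full were the 6 with the largest called fold changes of each subunit name and direction, the most and least abundant, those nearest the threshold and a few set apart by function, and in the other lists the called genes with the smallest p. Length classes, neighbouring genes, the tunnel exit group, the further genes named from the lists, motif strings and printed windows were chosen after values were seen. Alternatives were a replicate block, pseudocount 0.1, no filter, a filter at FPKM 1, median-ratio, quantile and TPM scaling, a lowess correction for length, voom on the recovered fragments and leaving out each liver. Groups of 3 cannot be screened for outlying samples.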

Additional observations from a re-analysis of the deposited data

How the results depend on the processing

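The counts of calls moved with the scaling and with single livers. Over all genes, higher calls numbered 1093 in the reported fit, 1924 under median-ratio scaling, 1886 under quantile normalization, 631 on TPM, 1722 with the length correction and 1807 by voom on recovered fragments, and lower calls numbered 3234, 1727, 1743, 4929, 1844 and 1780 in the same order. TPM gave 22 members higher and 6 lower, 16 Mrpl genes higher and 3 lower, and 6 Mrps genes higher and 3 lower, and the length correction gave 2 Mrpl genes lower. The Mrpl and Mrps medians were 0.70 and 0.66 under median-ratio scaling, 0.62 and 0.56 under quantile normalization, 0.21 and 0.17 on TPM, 0.35 and 0.21 with the length correction and 0.72 and 0.68 by voom, each with the median of all genes moved by 0.19 to 0.23 in size. The Mrpl minus Mrps difference was 0.14 with the length correction. All 41 members higher in the reported fit were also higher under median-ratio scaling, quantile normalization and voom.

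Leaving out 1 liver gave 599 to 1351 genes higher and 1711 to 4127 lower, 18 to 44 members higher and 2 to 4 lower, 14 to 28 Mrpl genes higher and 1 to 3 lower, 4 to 16 Mrps genes higher, and an Mrpl minus Mrps difference of -0.0011 to 0.071. The fewer samples of such fits were not separated from the effect of the liver left out.

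Over all 75 members 25 changed sign under at least 1 alternative. Among them 1 had a call before, Mrpl33, which was not called at -0.042 with the length correction, and 1 gained an opposite call, Mrpl34 at -0.44 with the length correction. Among the 54 genes followed through the alternatives, 7 without a call changed sign in 20 values. Mrpl12 was -0.0063 under quantile normalization, -0.18 on TPM and -0.18 with the length correction. Mrpl19 was -0.14 on TPM and, leaving 1 liver out, between -0.0010 and 0.13. Mrpl4 was 0.068 under median-ratio scaling, 0.13 under quantile normalization, 0.13 with the length correction and 0.058 by voom. Mrps24 was -0.14 on TPM, -0.11 with the length correction and, leaving 1 liver out, between -0.0096 and 0.18. Mrps27 was 0.10 under median-ratio scaling, 0.10 under quantile normalization and 0.079 by voom. Polrmt was -0.080 on TPM. Nrf1 was 0.025 under median-ratio scaling, 0.12 under quantile normalization, 0.17 with the length correction and 0.028 by voom. The cause was not tested.

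Same-numbered livers deviated together with correlations of 0.14, -0.15 and 0.06, and livers with different numbers with correlations of -0.21 to 0.21. With 3 livers per group these values cannot settle whether the samples were paired. A fit with the replicate block called 38 members higher and 2 lower, 26 Mrpl genes and 12 Mrps genes higher and 1 of each lower, against 41 and 2 without it.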
